A study of Mus musculus with 6 samples.

Results

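The nuclear genes of oxidative phosphorylation are described here by their open chromatin in mouse heart cushion cells. Members were the protein-coding nuclear genes whose symbols begin with Nduf, Sdha, Sdhb, Sdhc, Sdhd, Uqcr, Atp5 or Cox followed by a digit. The rule found 109 of the 21887 protein-coding genes on chromosomes 1 to 19, X and Y. They comprised 49 genes of complex I, 8 of complex II, 8 of complex III, 27 of complex IV and 17 of complex V. ATAC-seq, in which a transposase inserts adapters into accessible DNA, was run on an immortalised line of atrioventricular cushion mesenchymal cells, the embryonic tissue from which heart valves and septa form. The high-glucose group (HG1, HG2 and HG3) had 25 mM glucose for 48 h, and the normal-glucose group (NG1, NG2 and NG3) had 5.5 mM glucose for 48 h. All libraries shared the strain H- 2Kb-tsA58 transgenic, which carries a conditional viral T antigen, passage 6 and 54000 cells per library. The sources used here do not give whether replicates came from separate cultures or whether the line is a single clone, so spread between libraries may be technical.

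Oxidative phosphorylation moves electrons from NADH and succinate through complexes I to IV to oxygen and uses the resulting proton gradient to make ATP at complex V. Most subunits are encoded in the nucleus, and the remainder in mitochondrial DNA. Nuclear genes of the pathway are expressed in nearly all cell types, and NRF1, the ETS factor GABPA and YY1 are transcription factors known to act at many of their promoters. Several subunits of complex IV have isoforms restricted to muscle, lung or testis. Assembly factors are not part of the finished complex but are needed to build it.

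A gene was called open in a library when a deposited peak overlapped the 1 kb on either side of the lower or the upper end of the gene. The authors' peak lists held 22156, 25020 and 22598 peaks in HG1, HG2 and HG3, and 24263, 66 and 40350 in NG1, NG2 and NG3. NG2 held no peak at a member's end and did not enter, which left 5 libraries. Peak lists carry no counts of reads, which leaves the depth unknown, and a gene without a peak may have had a weaker one below the authors' threshold. The share of all protein-coding genes open averaged 43.1% ± 1.46 over the high-glucose libraries (SD, n = 3), against 46.1% ± 5.24 over the normal-glucose libraries (SD, n = 2). The high-glucose mean minus the other was -3.07 percentage points and gave p = 0.60 in a two-sided exact permutation test, in which 3 against 2 libraries allow no p under 0.2. Of 8 cushion mesenchyme markers 6 were open in all 5 libraries, against 35.7% of all protein-coding genes, and Twist1 and Postn were open in 4. No endothelial or cardiomyocyte marker, of 6 each, was open in all 5. The endothelial marker Kdr was open in 4 libraries, and the others of these 2 lists in none. Blood markers gave 1 of 6 (Spi1), with Cd68 open in 2 libraries. Epicardial markers gave 2 of 5 (Wt1 and Upk3b), with Tbx18 open in 4 libraries and Msln in 3. The part of such cells in the results below was not tested.

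Gene starts are shown first for the member of each complex that ranked highest in the library where it was weakest, among members with an entry in the RefSeq promoter table (GRCm38.p6, the coordinates of mm10). Each run is 300 bases, 250 before and 50 after the gene start, on the strand of the gene. Capitals mark matches to CGCANGCGC (the NRF1 motif), AAGATGGCG (YY1), CCGGAAG (ETS) or TGACGTCA (CRE), read on both strands. Ndufa6 lies on the minus strand at chr15:82354242-82354541, Sdhb on the plus strand at chr4:140961021-140961320, and Uqcrh on the minus strand at chr4:116075021-116075320. Cox6a1 lies on the minus strand at chr5:115348909-115349208 and Atp5g2 on the minus strand at chr15:102670998-102671297. Uqcrq ranked above Uqcrh in complex III. The NRF1 match of Ndufa6 begins 23 bp downstream of the start, the ETS match of Sdhb 6 bp downstream and that of Uqcrh 10 bp upstream, at -10.
Ndufa6: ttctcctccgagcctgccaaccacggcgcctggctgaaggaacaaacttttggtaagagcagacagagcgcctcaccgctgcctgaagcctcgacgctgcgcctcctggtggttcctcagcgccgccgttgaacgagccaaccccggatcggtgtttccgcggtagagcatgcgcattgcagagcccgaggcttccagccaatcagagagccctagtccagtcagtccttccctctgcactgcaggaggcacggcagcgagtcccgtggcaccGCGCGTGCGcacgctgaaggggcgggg
Sdhb: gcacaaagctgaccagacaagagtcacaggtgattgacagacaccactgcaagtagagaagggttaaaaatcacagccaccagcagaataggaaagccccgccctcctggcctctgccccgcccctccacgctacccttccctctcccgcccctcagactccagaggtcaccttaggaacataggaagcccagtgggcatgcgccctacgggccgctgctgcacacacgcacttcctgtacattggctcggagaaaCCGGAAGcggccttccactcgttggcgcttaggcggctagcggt
Uqcrh: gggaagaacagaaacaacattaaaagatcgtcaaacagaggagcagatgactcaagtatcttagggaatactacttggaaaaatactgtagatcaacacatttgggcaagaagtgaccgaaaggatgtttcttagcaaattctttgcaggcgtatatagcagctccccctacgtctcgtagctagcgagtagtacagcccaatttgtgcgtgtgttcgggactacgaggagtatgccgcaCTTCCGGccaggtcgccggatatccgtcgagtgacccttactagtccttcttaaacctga
Cox6a1: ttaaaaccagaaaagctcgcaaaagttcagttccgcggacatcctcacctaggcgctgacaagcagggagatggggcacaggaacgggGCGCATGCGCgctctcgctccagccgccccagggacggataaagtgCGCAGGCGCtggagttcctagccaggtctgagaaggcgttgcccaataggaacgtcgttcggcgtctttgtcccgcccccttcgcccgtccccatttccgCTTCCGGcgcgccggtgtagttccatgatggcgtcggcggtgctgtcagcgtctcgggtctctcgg
Atp5g2: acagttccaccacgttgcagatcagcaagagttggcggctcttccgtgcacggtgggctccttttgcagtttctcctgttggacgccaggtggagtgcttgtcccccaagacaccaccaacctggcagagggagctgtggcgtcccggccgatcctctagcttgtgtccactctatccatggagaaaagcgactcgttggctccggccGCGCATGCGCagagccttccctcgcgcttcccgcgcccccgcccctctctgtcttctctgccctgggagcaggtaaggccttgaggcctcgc

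Set against these are 3 complex IV genes with no peak at either gene end in any library, the first in alphabetical order among the 8 such members with an entry. Cox5a lies on the plus strand at chr9:57520982-57521281, Cox6b2 on the minus strand at chr7:4753045-4753344, and Cox7a2 on the minus strand at chr9:79759804-79760103. None of the 4 motifs matched in these windows, so no letter is in capitals. As described further on, Cox5a and Cox7a2 carried strong peaks at these starts, which lie inside the annotated genes, while Cox6b2 carried none.
Cox5a: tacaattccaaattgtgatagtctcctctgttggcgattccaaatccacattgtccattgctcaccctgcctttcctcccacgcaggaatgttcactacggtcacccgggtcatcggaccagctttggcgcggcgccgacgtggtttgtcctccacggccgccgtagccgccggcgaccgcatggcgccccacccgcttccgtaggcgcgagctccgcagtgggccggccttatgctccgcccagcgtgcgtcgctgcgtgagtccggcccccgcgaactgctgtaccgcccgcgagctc
Cox6b2: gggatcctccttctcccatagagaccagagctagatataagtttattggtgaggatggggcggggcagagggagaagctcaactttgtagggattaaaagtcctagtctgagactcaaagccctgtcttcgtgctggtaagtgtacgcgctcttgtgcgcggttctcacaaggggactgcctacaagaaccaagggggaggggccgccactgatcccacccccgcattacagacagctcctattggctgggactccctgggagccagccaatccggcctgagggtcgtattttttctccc
Cox7a2: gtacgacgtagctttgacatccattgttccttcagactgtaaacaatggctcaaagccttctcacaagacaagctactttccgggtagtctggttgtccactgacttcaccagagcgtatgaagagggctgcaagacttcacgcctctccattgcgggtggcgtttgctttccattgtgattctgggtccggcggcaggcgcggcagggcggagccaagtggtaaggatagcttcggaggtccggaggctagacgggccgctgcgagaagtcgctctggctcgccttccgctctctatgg

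Most members were open, and the majority of members, as of all genes, had the same call in all 5 libraries. A gene-end peak was present in all 5 libraries at 68 of the 109 members (62.4%), against 35.7% of all protein-coding genes. No library held one at 14 members (12.8%), against 48.0% of all genes. Calls differed between libraries, with a peak in 1 to 4 of them, at 27 of the 109 members. The same held for 3566 of all 21887 genes, a smaller share. By library, 79, 82 and 88 members were open in HG1, HG2 and HG3, and 77 and 92 in NG1 and NG3. Members thus ranged from 70.6% open in NG1 to 84.4% in NG3, the longest list, and all genes from 41.6% in HG1 to 49.8% in NG3. HG3 stood second for members although its list was shorter than those of HG2 and NG1.

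**Figure D1:**
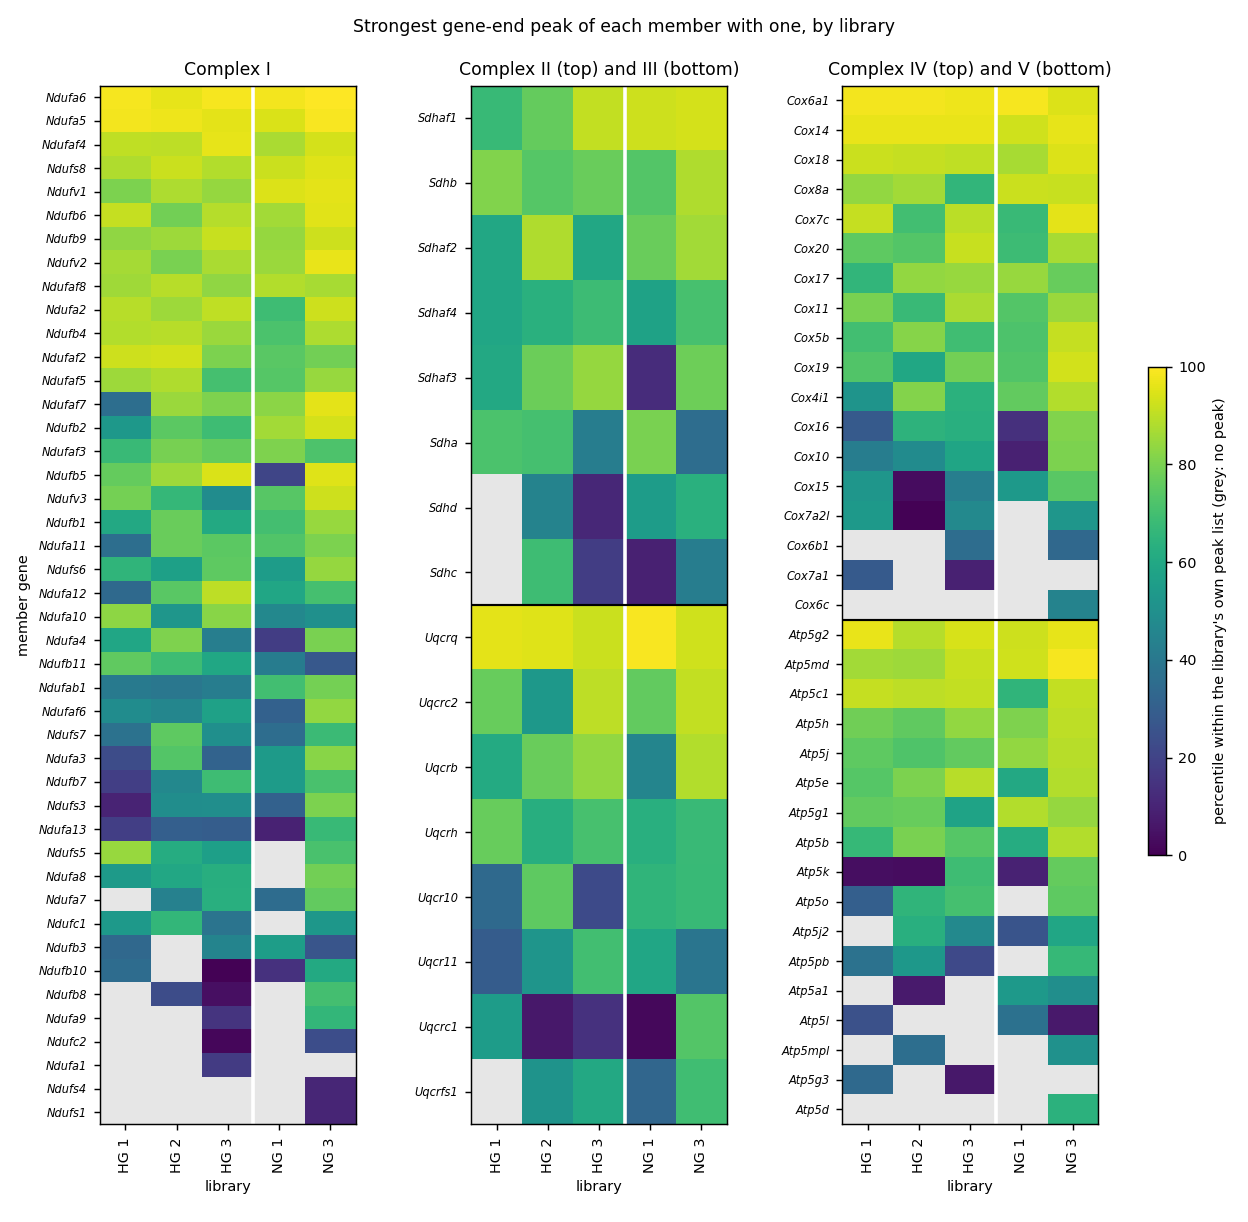
Percentile of the strongest gene-end peak of each of the 95 members with such a peak in at least 1 library (rows, by complex) within the peak list of each library (columns, HG for high and NG for normal glucose), with grey for no peak. The 68 members open in all 5 libraries fill the upper part of each complex, and the grey cells of the other 27 lie below them.

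The counts varied by complex. All 5 libraries shared a peak at 32 of 49 members of complex I, 6 of 8 of complex II, 7 of 8 of complex III, 14 of 27 of complex IV and 9 of 17 of complex V. Complex IV held 9 of the 14 members open in no library and complex I the other 5, so that complexes II, III and V had no such member. Among members, the assembly factors were open more often than the rest, a difference that was not tested. A peak in all 5 libraries was found at 20 of the 21 genes with that role in complexes I, II and IV, and at 48 of the 88 remaining members. Ndufaf1, an assembly factor of complex I, was open in no library. Assembly factors outside the symbol rule, described further on, were less uniform.

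**Figure D2:**
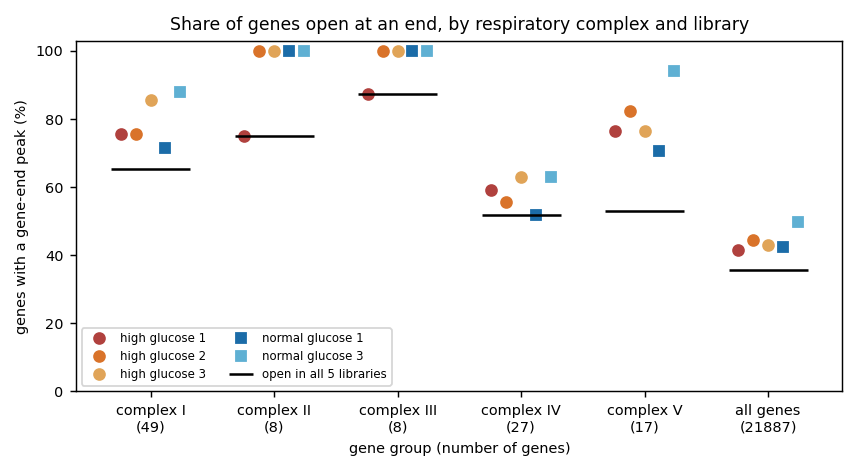
Share of genes with a gene-end peak (vertical axis, percent) for each complex and for all protein-coding genes, with 1 point per library and a black line for the share open in all 5. Complex IV lies lowest among the complexes in HG1, HG2, HG3, NG1 and NG3, at 51.9% to 63.0%, above the 41.6% to 49.8% of all genes.

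Peak strength is given below as the percentile of a gene's strongest gene-end peak among all nuclear peaks of that library, sorted on the deposited −log10 p, where 100 is the strongest. Since list lengths differed, a percentile places a peak within its list and measures no change from library to library. Genes are ordered by their percentile in the library where each was weakest. Among complex I genes the accessory subunits Ndufa6 and Ndufa5 ranked highest. Ndufa6 stood at 98.8, 96.1 and 98.6 in HG1, HG2 and HG3, and at 98.1 and 99.7 in NG1 and NG3. Its peak had an authors' fold enrichment of 19.2, 16.8 and 19.2 in the high-glucose libraries and of 16.6 and 22.1 in the normal-glucose libraries. In HG1 this peak lay at chromosome 15, 82354191 to 82354506, over the gene start printed above. Ndufa5 stood at 98.3, 97.4 and 96.0 in HG1, HG2 and HG3, and at 94.2 and 99.0 in NG1 and NG3. Both genes were thus near the top of every list at either glucose level.

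The core subunits of complex I, which carry its flavin and iron-sulfur centres, varied widely in rank. Of the 7 core subunits 5 were open in all 5 libraries (71.4%), against 63.3% of the accessory subunits. The 5 were Ndufs8, Ndufv1, Ndufv2, Ndufs7 and Ndufs3. Ndufs8, an iron-sulfur subunit, stood at 88.2, 92.0 and 88.5 in HG1, HG2 and HG3, and at 92.1 and 95.3 in NG1 and NG3. Ndufs3 was weak in HG1, at 9.96, and stood at 49.2 and 49.4 in HG2 and HG3, and at 31.0 and 80.2 in NG1 and NG3. Ndufs1, the largest iron-sulfur subunit, had a gene-end peak only in NG3, at 10.3. The lowest of the complex I genes open in all 5 libraries was Ndufa13, an accessory subunit also known as GRIM-19. It stood at 18.7, 30.2 and 29.4 in HG1, HG2 and HG3, and at 9.53 and 67.3 in NG1 and NG3.

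Of the 30 accessory subunits of complex I, 19 were open in all 5 libraries and 11 in 1 to 4. Ndufa8, Ndufc1 and Ndufs5 lacked a peak only in NG1, Ndufa7 only in HG1, and Ndufb10 and Ndufb3 only in HG2. At the other extreme, Ndufa1 had a peak only in HG3, at 17.4, and Ndufs4 only in NG3, at 10.9. Ndufa9 was open in HG3, at 15.0, and in NG3, at 66.1, and Ndufc2 in HG3, at 1.70, and in NG3, at 23.6. Ndufb8 was open in HG2, HG3 and NG3, at 23.3, 4.14 and 70.2. All 3 genes thus had a peak in HG3 and NG3 and none in HG1 or NG1. Ndufb4b and Ndufb4c, annotated paralogs of Ndufb4, had no peak in any library, while Ndufb4 itself stood between 71.7 and 89.2. Ndufa4, which is now counted as a subunit of complex IV, was open in all 5 libraries, at 59.0, 80.6 and 42.6 in HG1, HG2 and HG3, and at 18.1 and 80.0 in NG1 and NG3. Its hypoxia-induced paralog Ndufa4l2 had no gene-end peak.

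Complex II, succinate dehydrogenase, links the citric acid cycle to the chain. Sdhb, its iron-sulfur subunit, ranked highest by its weakest library and stood at 81.2, 73.7 and 77.1 in HG1, HG2 and HG3, and at 73.4 and 88.2 in NG1 and NG3. Sdha, the flavoprotein subunit, stood at 71.7, 70.4 and 42.3 in HG1, HG2 and HG3, and at 79.8 and 35.6 in NG1 and NG3. The membrane anchors Sdhc and Sdhd lacked a peak in HG1 and had one in the other 4 libraries. Sdhc stood at 69.1 and 18.3 in HG2 and HG3, and at 9.11 and 42.3 in NG1 and NG3. All 4 assembly factors were open throughout, with Sdhaf1 at 67.4, 76.2 and 91.0 in HG1, HG2 and HG3, and at 92.4 and 93.7 in NG1 and NG3, above Sdhb in each library but HG1. Sdhaf2 ranged from 59.9 to 87.9, and Sdhaf3 was the weakest, with 12.7 in NG1 and 60.5 to 84.0 in the other 4 libraries.

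In complex III, which passes electrons from ubiquinol to cytochrome c, Uqcrq was strongest. This small subunit stood at 95.9, 95.0 and 92.0 in HG1, HG2 and HG3, and at 98.9 and 92.8 in NG1 and NG3. Uqcrh, the hinge protein, ranged from 62.8 to 76.9, and the core protein Uqcrc2 from 53.2 to 90.7. In HG3 the strongest peak of Uqcrh, at 70.8, had its summit at -805 bp, outside the sequence printed above. Its summits in HG1, HG2, NG1 and NG3 lay between -22 and 4 bp. Uqcrc1, the other core protein, was near the foot of most lists. It stood at 55.4, 6.31 and 14.3 in HG1, HG2 and HG3, and at 2.03 and 73.4 in NG1 and NG3. Uqcr10 ranged from 22.6 to 75.3. Uqcrfs1, the Rieske iron-sulfur protein, lacked a peak only in HG1.

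Complex IV, cytochrome c oxidase, divided by role more than the others. All 9 assembly factors were open in every entering library, while 5 of 10 ubiquitous subunits and 0 of 7 tissue-restricted isoforms were. These counts are of gene ends. The ubiquitous subunits Cox5a and Cox7a2, not among the 5, were open at their starts in every entering library, as described further on. Cox6a1, the ubiquitous form of subunit VIa, stood at 98.3, 98.3 and 97.6 in HG1, HG2 and HG3, and at 98.6 and 94.9 in NG1 and NG3. Cox6a2, its heart and skeletal muscle form, had no gene-end peak, and its nearest peak in any library lay 25574 bp away, in HG1. Cox14 and Cox18, both assembly factors, ranged from 92.9 to 96.6 and from 86.9 to 94.6. Cox10 and Cox15, which make haem A, were the weakest of that role. Cox10 stood at 42.3, 48.1 and 58.6 in HG1, HG2 and HG3, and at 9.11 and 80.3 in NG1 and NG3. Cox15 stood at 52.4, 3.31 and 42.6 in HG1, HG2 and HG3, and at 53.7 and 74.6 in NG1 and NG3.

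The other tissue-restricted isoforms resembled Cox6a2. Cox4i2, the lung isoform, Cox8b, of heart and skeletal muscle, and the testis isoforms Cox6b2, Cox7b2 and Cox8c were open in no library. Cox7a1, of heart and skeletal muscle, had a weak peak in HG1, at 28.2, and HG3, at 9.22, and none in HG2, NG1 or NG3. Absent calls were not limited to restricted isoforms. Among ubiquitous subunits Cox5a, Cox7a2 and Cox7b had no gene-end peak, Cox6c had one only in NG3, at 44.7, and Cox6b1 had one in HG3, at 35.6, and in NG3, at 33.6. Cox7a2l, which joins complexes III and IV into supercomplexes, lacked a peak only in NG1.

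In complex V, ATP synthase, each of the 17 members was open in at least 1 library. Atp5g2, one of the genes for the proton-carrying c subunit, ranked highest by its weakest library, at 96.8, 88.7 and 93.9 in HG1, HG2 and HG3, and at 92.5 and 96.2 in NG1 and NG3. Its paralog Atp5g1 ranged from 58.2 to 88.6. Atp5g3, which encodes the same mature protein, was open only in HG1, at 34.2, and HG3, at 6.37. Atp5md ranged from 85.5 to 98.8 and stood above Atp5g2 in NG1 and NG3. Atp5h, a stalk subunit, ranged from 75.5 to 90.0. Of the F1 subunits, which form the catalytic head, Atp5b, Atp5c1 and Atp5e were open in all 5 libraries. Atp5k was the weakest such member of complex V and stood at 3.68, 3.25 and 69.1 in HG1, HG2 and HG3, and at 9.53 and 76.2 in NG1 and NG3. Atp5mpl, a small subunit of the membrane part, was open in HG2, at 36.3, and in NG3, at 50.5. Atp5j2 lacked a peak only in HG1, and Atp5o and Atp5pb only in NG1.

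Members open in all 5 libraries did not rank above other genes so called. Their lowest percentile over the 5 libraries ran from 2.03 at Uqcrc1 to 96.1 at Ndufa6. Their median percentile was 74.4, 77.1 and 78.0 in HG1, HG2 and HG3, and 72.7 and 87.3 in NG1 and NG3. Over all 7818 genes open in all 5 libraries the medians were 79.0, 82.2 and 80.4 in HG1, HG2 and HG3, and 79.2 and 88.1 in NG1 and NG3. Members open in 1 to 4 libraries lay lower where they had a peak. Their medians were 35.3, 52.3 and 28.8 in HG1, HG2 and HG3, and 35.5 and 56.1 in NG1 and NG3. Medians for all genes open in 1 to 4 libraries were not taken, so this cannot be read as a trait of the members.

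**Figure D3:**
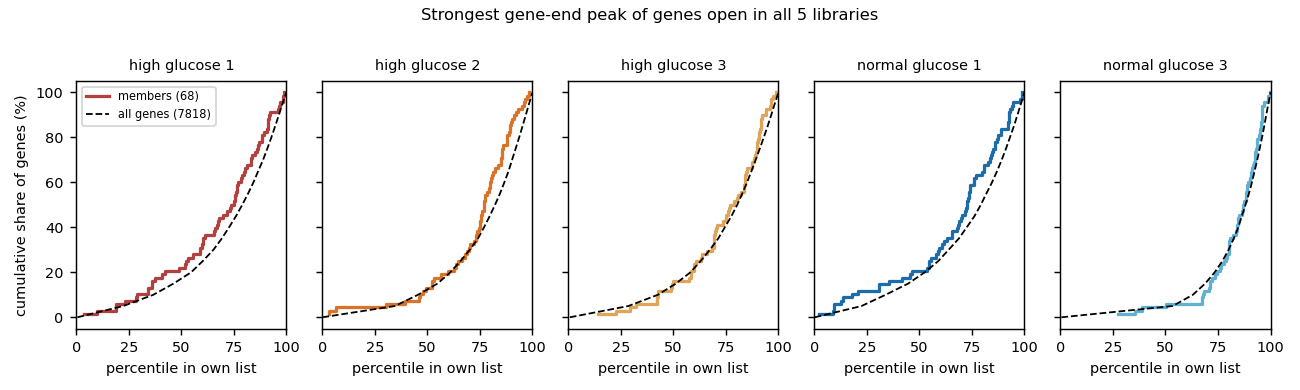
Cumulative share (vertical axis, percent) of the 68 members (coloured steps) and of all 7818 genes open in all 5 libraries (dashed line) against the percentile of the strongest gene-end peak in each library's own list. In all 5 libraries the members' median, 72.7 to 87.3, lies below that of all such genes, 79.0 to 88.1.

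A gene open at an end need not be open at its start, and the start can lie inside the annotated gene. Of the 109 members, 89 had a start in the promoter table. All 59 of these that were open at an end in all 5 libraries had a peak within 1 kb of the start in all 5. A further 3 members, Cox5a, Cox7a2 and Atp5d, were open at the start in all 5 libraries although their gene ends were not, which brought the total to 62 of 89 (69.7%), against 38.6% of the 17492 genes with a start. The start of Cox5a lies 3904 bp inside the annotated gene. Its peak there stood at 92.1, 95.3 and 90.6 in HG1, HG2 and HG3, and at 95.5 and 95.8 in NG1 and NG3. At the start of Cox7a2, 4612 bp inside the gene, the peak stood at 98.1, 96.6 and 92.5 in HG1, HG2 and HG3, and at 95.4 and 97.5 in NG1 and NG3. Both subunits therefore belonged with the strongest of complex IV once the start was used. At Atp5d, a subunit of the F1 stalk, the summit lay at -788 to -758 bp from the start in the 5 libraries.

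Ndufa4l2, which had no gene-end peak either, had a peak within the gene body in each of the 5 libraries. The strongest such peak stood at 73.5, 60.7 and 43.9 in HG1, HG2 and HG3, and at 31.2 and 77.1 in NG1 and NG3. When gene bodies and the adjoining 1 kb were searched in full, 9 members had no peak in any library. They were Ndufaf1, Ndufb4b, Ndufb4c, Cox7b, and the isoforms Cox4i2, Cox6a2, Cox6b2, Cox8b and Cox8c. The nearest peak to Ndufaf1 lay 12008 to 12317 bp away and that to Cox7b 3734 to 3803 bp away. Cox6b2 had its nearest peak 11529 to 11622 bp away, Cox8b 2914 to 16564 bp, Cox4i2 1543 to 12349 bp and Cox8c 13350 to 20645 bp. For Ndufb4b the distance was 3281 to 7804 bp and for Ndufb4c 17412 to 23461 bp. The closest of these peaks, 1543 bp from Cox4i2, was in NG3, and with windows of 2.5 kb Cox4i2 was open in that 1 library. Cox7b2 held a peak inside the gene in HG2, at 2.06, and NG3, at 33.6, only.

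No member was specific to a glucose level. A gene-end peak that every high-glucose library held and NG1 and NG3 lacked was found at 0 members, against 0.0640% of all genes. The reverse, a peak that NG1 and NG3 held and every high-glucose library lacked, was also found at 0 members, against 0.699%. With 109 members such shares lead to a count of less than 1, so the counts of 0 say little about the members. Members open per library averaged 83.0 ± 4.58 over the high-glucose libraries (SD, n = 3), against 84.5 ± 10.6 over the normal-glucose libraries (SD, n = 2). The libraries of the groups overlapped, since all 3 high-glucose counts lay between those of NG1 and NG3.

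Calls that came near to specificity rested on single libraries. Without NG3 the 6 members that lacked a peak only in NG1 became specific to high glucose, namely Ndufa8, Ndufc1, Ndufs5, Cox7a2l, Atp5o and Atp5pb, and 362 genes did so in all. Without NG1 the 4 members with a gene-end peak only in NG3, Ndufs1, Ndufs4, Cox6c and Atp5d, became specific to normal glucose, with 716 genes in all. For Atp5d this holds at the gene ends only, since its start was open in all 5 libraries. Leaving out HG2 made Cox7a1 and Atp5g3 specific to high glucose and Atp5a1 specific to normal glucose, with 26 and 320 genes in all. Leaving out HG1 made Atp5l specific to normal glucose, with 221 genes in all. Atp5a1, the F1 alpha subunit, had a peak at 7.12 in HG2 and none in HG1 or HG3, and stood at 54.0 and 49.6 in NG1 and NG3. At a −log10 q of at least 5, and with all lists cut to 22149 peaks, the HG2 peak dropped out and Atp5a1 became specific to normal glucose. Atp5l, a subunit of the membrane part, had a peak at 24.8 in HG1 and none in HG2 or HG3, and stood at 37.2 and 6.93 in NG1 and NG3.

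With all lists at the length of the shortest, 79, 77 and 86 members were open in HG1, HG2 and HG3, and 76 and 81 in NG1 and NG3. At that length 41.0% to 42.8% of all genes were open, and HG3 held the most members with a peak and NG1 the fewest.

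Merging the peaks of the 5 libraries where they overlapped gave 49048 regions, of which 130 lay at the ends of 95 members. Of these 130 regions 66 (50.8%) were present in all 5 libraries, against 25.1% of all regions. All regions include those away from gene ends, here and in the shares below. These comparisons therefore set unlike groups side by side and show no trait of the members. A single library held 25 of them, and for 15 that library was NG3, the longest list. The matching shares over all regions were not taken, so these counts cannot be read as a trait of the members. High-glucose-specific regions numbered 0 among the 130, against 0.167% of all regions. Normal-glucose-specific regions numbered 2 (1.54%), against 3.73% of all regions. One lay at Cox19, a copper-binding assembly factor, at chromosome 5, 139344164 to 139344281, and stood at 72.7 in NG1 and 73.9 in NG3. It was centred 944 bp downstream of the start. All 3 high-glucose libraries had other gene-end peaks of Cox19, at 73.0, 59.6 and 78.9. Their summits lay close to the start, at -53, -11 and -88 bp in HG1, HG2 and HG3. The strongest gene-end peak of NG3 was there too, at -65 bp. The other normal-glucose-specific region lay at Ndufb9, an accessory subunit, at chromosome 15, 58933253 to 58933394, and stood at 12.8 in NG1 and 2.11 in NG3.

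Summits clustered just upstream of the gene starts. Within 100 bp of the start lay 65.7%, 72.9% and 73.1% of the members' strongest summits in HG1, HG2 and HG3, and 66.7% and 71.8% in NG1 and NG3. Over all genes with a gene-end peak and a start these shares were 52.7%, 51.8% and 54.0% in HG1, HG2 and HG3, and 51.0% and 52.5% in NG1 and NG3. Among summits within 1 kb the median lay at -55.0, -52.0 and -32.0 bp from the start in HG1, HG2 and HG3, and at -36.0 and -33.5 bp in NG1 and NG3. At Ndufa6 the summit was at -34, 3 and -6 bp in HG1, HG2 and HG3, and at -40 and 1 bp in NG1 and NG3, inside the sequence printed above. Not every strongest peak was at a start: at Ndufb6 it lay 9503 to 9542 bp downstream, at the far end of the gene.

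**Figure D4:**
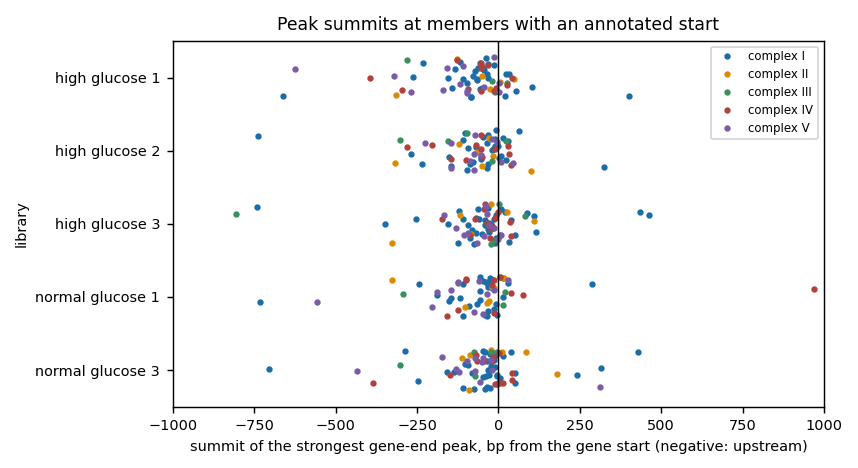
Distance of the strongest gene-end summit from the gene start (horizontal axis, bp, negative upstream) for members with a start in the promoter table and a summit within 1 kb of it, 1 row per library and 1 point per member, coloured by complex. The medians lie between -55.0 and -32.0 bp, and 65.7% to 73.1% of all members' summits fall within 100 bp.

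Members were compact genes, and starts close to that of another gene on the opposite strand were more frequent than over all genes. Their median annotated length was 7390 bp, against 17200 bp for all genes. An end of another protein-coding gene lay within 1 kb of an end of 59 of the 109. The matching count over all genes was not taken, so the 59 cannot be read as a trait of the members. Of the 89 members with a start, 25 (28.1%) had the start of another gene on the opposite strand within 1 kb upstream, against 8.48% of all genes with a start. Such pairs share a promoter region and can share a peak, so a call at such a start cannot be assigned to a single gene. Examples were Atp5j with Gabpa, which encodes the DNA-binding subunit of the ETS factor GABP, Sdhd with Timm8b, Ndufb5 with Mrpl47 and Ndufa7 with Rps28. A peak in all 5 libraries was found at 20 of the 25 paired members (80.0%) and at 39 of the 64 others (60.9%). For all genes the shares were 75.5% of paired and 33.1% of other genes.

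Start windows of members were richer in CpG and in NRF1, ETS and YY1 motifs than those of all genes, and this was not tested. The ratio of observed to expected CpG was at least 0.6 in 84.3% of the 89 members and in 50.9% of all genes, and in 83.4% of the 6424 genes with a start that were open in all 5 libraries. The NRF1 motif matched in 28 members (31.5%), against 17.9% of genes open in all 5 libraries and 9.68% of all genes. The ETS motif matched in 27 (30.3%), against 22.3% and 12.9%, and the YY1 motif in 9 (10.1%), against 3.95% and 2.14%. At least 1 of these 3 motifs matched in 52 members (58.4%), against 38.3% of genes open in all 5 libraries and 21.9% of all genes.

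For the Sp1 motif, GGGCGG, the order was another, with 49.4% of members, 74.7% of genes open in all 5 libraries and 49.2% of all genes. The NF-Y motif, CCAAT, matched in 41.6% of members, 46.0% of genes open in all 5 libraries and 42.3% of all genes. The CRE motif matched in 4.49%, 3.94% and 2.54% of the same groups and the TATA box, TATAAA, in 11.2%, 7.05% and 14.8%.

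Motif content varied between the complexes. The NRF1 motif matched in 9 of 15 members of complex V, 3 of 5 of complex III, 4 of 7 of complex II and 11 of 42 of complex I, but in 1 of 20 of complex IV, which was Cox6a1. The ETS motif matched in 5 of 7 members of complex II, 8 of 20 of complex IV, 6 of 15 of complex V, 2 of 5 of complex III and 6 of 42 of complex I. By openness, the ETS motif matched in 23 of 59 members open in all 5 libraries and 3 of 22 open in 1 to 4. The Sp1 motif matched in 33 of 59 and 6 of 22, and the NRF1 motif in 20 of 59 and 8 of 22. For the YY1 motif the counts were 5 of 59 and 4 of 22. No share was taken for all genes open in 1 to 4 libraries, and these differences were not tested. A match is a run of letters in the window and not a measured site. In Cox6a1 and Atp5g2 the NRF1 motif was read on both strands over overlapping bases.

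**Figure D5:**
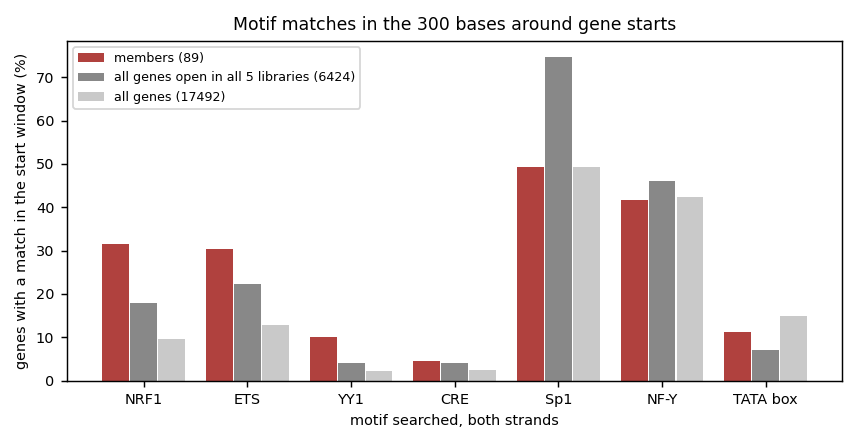
Share of genes (vertical axis, percent) with a match to each motif in the 300 bases around the start, for the 89 members, the 6424 genes open in all 5 libraries and all 17492 genes with a start. The members' bars for NRF1, ETS and YY1, at 31.5%, 30.3% and 10.1%, exceed those of all genes, at 9.68%, 12.9% and 2.14%, and their Sp1 bar, at 49.4%, is below the 74.7% of genes open in all 5 libraries.

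Other genes of the pathway, outside the symbol rule, had a similar share of open calls. Of 39 such genes 27 were open in all 5 libraries and 2 in none, Atpaf2, an assembly factor of ATP synthase, and Cyct, the testis form of cytochrome c. Assembly factors were among the genes open in fewer than 5 libraries. Acad9, Timmdc1, Tmem186 and Dmac1 of complex I, Surf1 of complex IV and Atpaf1 of ATP synthase were open in 4, Dmac2 in 3 and Nubpl, of complex I, in 2. Among those open throughout were Cyc1 and Cycs, which encode the cytochromes c1 and c. Of 20 regulators of these genes 15 were open in all 5 libraries. They included Nrf1, Gabpa, Yy1, Esrra, Tfam and the coactivator Ppargc1a, while Gabpb1, Esrrb, Esrrg and Mterf1a had no gene-end peak. Gene families of other large assemblies gave shares close to that of the members, with 47 of 78 mitochondrial ribosomal protein genes (60.3%), 45 of 84 cytosolic ribosomal protein genes (53.6%) and 31 of 51 proteasome genes (60.8%) open in all 5 libraries.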

How the data were processed

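The authors deposited 1 narrowPeak list per library on mm10. Per the submitters' processing notes the tools included MACS2 2.1.0, Bowtie 1.0.0, cutadapt 1.0, Picard 1.90, SAMtools 0.1.19 and DiffBind 1.12.3. Their settings, duplicate removal and any shift of reads for the transposase are not given in the sources used here, and they can change which peaks pass and where a summit lies. Each deposited peak has a score, a ratio (fold enrichment over the caller's background), −log10 of its p-value and q-value, and a summit. The lowest deposited −log10 q was 1.30.

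Peaks were joined by at least 1 bp to windows of 1 kb around both ends of RefSeq protein-coding genes, lists under 1000 peaks were left out, and the calls were checked against bedtools 2.31.1 (0 of 48501 differed). Percentiles rank −log10 p within a list. Python 3.11.15, numpy 2.4.6, pandas 2.3.3 and SciPy 1.17.1 were used. Joining was also tested on simulated peaks. Peak lists hold no counts, so a gene's call was compared as present or absent, and the share of all genes open was the only quantity tested.

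Members, roles, gene lists and motifs were chosen with earlier results of these data known. Genes named with values were the 3 highest and 2 lowest ranked per complex among those open in all 5 libraries, those open in no library, and the tissue-restricted isoforms; 1 member is counted but not reported by name here. Members open in exactly 4 libraries or exactly 1 were named by library, and others were chosen after their values were seen. Starts and sequences came from RefSeq (GRCm38.p6) for 89 of 109 members, matched by gene ID. Alternatives were windows of 500 and 2500 bp, a −log10 q of at least 5, equal list lengths, summits only, gene starts only, whole genes, all 6 libraries, each library left out, and libraries paired by number.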

Additional observations from a re-analysis of the deposited data

Results flagged for a closer look

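Each list also held peaks on the mitochondrial genome, which encodes the remaining subunits and does not enter the nuclear comparisons. They numbered 7, 7 and 9 in HG1, HG2 and HG3, and 8 and 8 in NG1 and NG3. NG2, with 66 peaks in all, held 14. Of the 13 mitochondrial protein-coding genes, 7 overlapped a peak in each of HG1, HG2, HG3, NG1 and NG3, and 6 did in NG2. These counts, 7 to 14 per list, drew attention because they lie outside the main measurement. Mitochondrial DNA is not packed into nucleosomes, and what sets these counts was not tested.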

How the results depend on the processing

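The count of members open in all 5 libraries was 48 at a −log10 q of at least 5 (44.0%, against 27.9% of all genes). Under the other settings that kept 5 libraries it was 62 to 73, of 89 members with gene starts only. These were 56.9% to 69.7% of members, against 32.8% to 44.6% of all genes. With 1 library left out the count was 68 to 74 (62.4% to 67.9%), against 35.8% to 37.6% of all genes. It was 0 with all 6 libraries, since NG2 has no peak at a member. Members open in no library numbered 20 at a −log10 q of at least 5, 18 at equal list length, 17 with windows of 500 bp, 6 with gene starts only, of the 89 members with a start, and 9 with whole genes. The shares of all genes open in none were 52.1%, 50.6%, 51.6%, 46.1% and 35.6% in the same order. With 1 library left out, members open in none numbered 14 to 18, against 48.3% to 50.6% of all genes. Members specific to normal glucose numbered 1 at a −log10 q of at least 5, at equal list length and with windows of 500 bp. Of all 21887 genes, 175, 46 and 143 were so called in these settings. With 1 library left out such members numbered 0 to 4, against 221 to 716 of all genes. Members specific to high glucose numbered 0 to 6 with 1 library left out, against 26 to 362 of all genes, and 0 under each other setting.

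The mean number of members open per library, -1.50 in high minus normal glucose, changed sign at equal list length (2.17), with gene starts only (0.833) and with all 6 libraries (26.7). It ran from -9.00 to 6.0 with 1 library left out, and was 0.500 without HG1 and 6.0 without NG3. The difference in the share of all genes open changed sign at equal list length (0.841 percentage points, p = 0.40) and with all 6 libraries (12.2 percentage points, p = 0.80), both by exact permutation test. With 1 library left out it ran from -6.77 to 0.641 percentage points, and 0.641 was the value without NG3. The cause of these changes of sign was not tested, except that NG2 holds 66 peaks.

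With a replicate block over numbers 1 and 3, the differences were -3.81 percentage points and -1.0 members. A check of pairing by number gave r = 0.046 for HG1 with NG1 and -0.046 for HG1 with NG3. For HG3 it gave 0.009 with NG1 and -0.009 with NG3. The values mirror each other, as deviations of 2 libraries from their own mean must, and are not correlations of the calls themselves. This check therefore could not decide whether the numbers pair the libraries. The 58 members named by rule were those ranked highest or lowest, open in no library, tissue-restricted, or open in exactly 4 or exactly 1. Of these, 21 changed the number of libraries they were open in at a −log10 q of at least 5, and 11 did so at equal list length. Members named with values for other reasons are not in these counts. Among them, Ndufc2 and Atp5g3 were open in no library at a −log10 q of at least 5. Depth per library is unknown, and 2 normal-glucose libraries limit every comparison between the groups.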
